A study of Mus musculus with 12 samples.

Results

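The difference between 2 mouse liver lines in their response to actinomycin D was measured gene by gene as the change in Hepa 1-6 cells (actinomycin D minus control) minus the change in AML12 cells (actinomycin D minus control). A positive difference therefore means a more positive change in Hepa 1-6. It draws on 8 of the 12 two-colour arrays of the study, 2 in each of 4 groups, and on 16549 genes with a ratio on all 12 arrays. The 4 groups are Hepa 1-6 given 10 µg/mL of actinomycin D (ActD) for 8 h, Hepa 1-6 kept serum-free as control, AML12 given the same dose of ActD for the same 8 h, and AML12 kept serum-free as control. All 4 were starved overnight of serum and additives before treatment, and of the 2 lines only AML12 had been kept in dexamethasone and insulin until then. The 4 arrays with prolactin added to the estimate of the spread and were not compared here.

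Hepa 1-6 is a mouse hepatoma line, and AML12 is a hepatocyte line from a mouse that carries a transgene for transforming growth factor alpha. The labels give hepatoma as the source of both lines. Every array set a sample labelled with Cy5 against a common reference labelled with Cy3, the Universal Mouse Reference that mixes RNA of 11 cell lines, and no dye was swapped. All levels below are log2 ratios to that reference, and all changes and differences are log2 units with the standard error and the Benjamini-Hochberg adjusted p of limma. A change of 1 is a 2-fold change. The base of the deposited logarithm was taken as 10; with base 2 all values would be smaller by the factor 3.322 and the signs and p-values the same. Levels of different genes are not compared, since each is relative to its own level in the reference. Genes with a group mean at or below -5 lie near the low end of the ratios, so the size of their changes is uncertain.

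The defining hepatocyte gene Alb averaged 4.48 in Hepa 1-6 with ActD, 4.30 in Hepa 1-6 controls, 4.83 in AML12 with ActD and 4.24 in AML12 controls. The 10 of 13 hepatocyte markers that were tested had median levels of 3.37 and 2.84 in Hepa 1-6 with ActD and without, and of 4.81 and 4.79 in AML12. Single markers set the controls apart in both directions, with Fabp1 at -0.33 in Hepa 1-6 and 7.14 in AML12, Apoh at -1.40 and 5.76, Ahsg at -2.20 and 2.84, and Apoa2 at 3.03 and -0.71. Afp, the fetal liver and hepatoma protein alpha-fetoprotein, averaged 5.61 in Hepa 1-6 controls and -0.22 in AML12 controls, but the other fetal genes tested lay closer, H19 at -2.44 and -2.59, Dlk1 at -3.81 and -3.92 and Igf2 at -1.84 and -2.94. The biliary keratin gene Krt19 averaged -4.15 in Hepa 1-6 controls and 4.07 in AML12 controls, whereas Epcam, another biliary marker, averaged -2.48 and -4.83. The 7 of 10 leukocyte markers that were tested had median levels of -3.72 and -3.42 in Hepa 1-6 with ActD and without, and of -3.15 and -3.15 in AML12, and Ptprc averaged -5.63 in AML12 with ActD and -5.50 in AML12 controls. Replicate arrays correlated at 0.975 to 0.985 across genes, the 2 control groups at 0.616, and each of the 8 arrays held 37397 to 40281 ratios. In such bulk RNA, fewer cells of a type and less RNA per cell cannot be told apart.

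Actinomycin D binds DNA and stops RNA polymerases from moving along it, so transcripts decay without being replaced. Short-lived messages, such as those of transcription factors and feedback inhibitors, fall soonest, and stable ones persist. Ratios scaled to the whole RNA of a sample turn slower loss than average into a rise, so a rise here is a relative one, and a gain of transcript and a slower loss cannot be told apart. The comparison asks which genes keep, lose or gain relative abundance in one line and not in the other.

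Both lines changed widely with ActD, and for many genes by different amounts. In Hepa 1-6, 4615 genes rose (27.9%) and 3802 fell (23%) with ActD. In AML12, 4640 rose (28%) and 4223 fell (25.5%). The split depended on the scaling. After median centring 4973 rose and 3473 fell in Hepa 1-6, and 5848 rose and 3417 fell in AML12. After quantile normalization 4549 rose and 3489 fell in Hepa 1-6, and 5345 rose and 3664 fell in AML12. Over the 16549 genes, which do not count as independent replicates, the changes in the lines correlated at 0.559 (Pearson) and 0.544 (Spearman). Changes were spread more widely in AML12, with an SD over genes of 0.748, against 0.661 in Hepa 1-6. The difference itself passed the threshold of 0.05 for 4972 genes (30%), of which 2853 (17.2%) were more positive in Hepa 1-6 and 2119 (12.8%) less positive. Median centring of each array turned this split into 2303 and 2647, and quantile normalization into 2270 and 2407. A difference of at least 2-fold was found for 1351 genes (8.16%). At the edge of the threshold, Il6st lay just inside with a difference of -0.29 (adjusted p = 0.0498) and Hccs just outside with 0.38 (adjusted p = 0.0501).

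Genes were then sorted by what each line did. Opposite responses, with the difference and both lines past the threshold and opposite signs, were found for 632 genes (3.82%): 348 (2.1%) rose in Hepa 1-6 and fell in AML12, and 284 (1.72%) fell in Hepa 1-6 and rose in AML12. The balance of these turned round with the scaling, at 269 and 353 genes when arrays were centred on their median, and 297 and 333 when they were quantile-normalized. Line-specific responses, with one line past the threshold and the other neither past it nor beyond 0.5 in either direction, were found for 2693 genes (16.3%). These were 735 rises in Hepa 1-6 (4.44%), 494 falls in Hepa 1-6 (2.99%), 745 rises in AML12 (4.5%) and 719 falls in AML12 (4.34%). Centring arrays on their median gave 998 rises and 557 falls in AML12, with 609 and 520 in Hepa 1-6. Quantile-normalized arrays gave 925 and 612 in AML12, with 568 and 450 in Hepa 1-6. The near balance of rises and falls in AML12 therefore depended on the scaling. Another 1492 genes (9.02%) moved in the same direction by different amounts. Of these, 849 fell in both lines, and the fall was larger in AML12 for 623. The other 643 rose in both, and the rise was larger in AML12 for 318. The same-direction counts are for the deposited scaling, and the split of all differences turned round with the other scalings. The last 155 genes (0.937%) fitted none of these classes. Without the first Hepa 1-6 control array, the genes that fell in Hepa 1-6 and rose in AML12 numbered 176, the Hepa 1-6 rises 464 and the Hepa 1-6 falls 294.

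**Figure D1:**
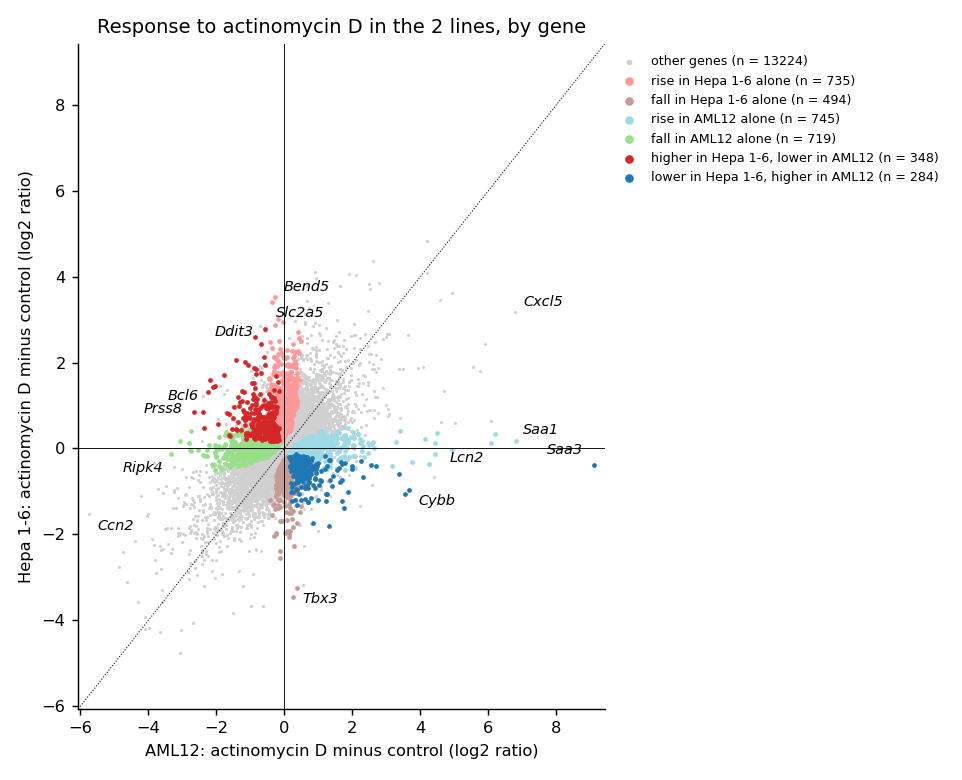
Change with actinomycin D in Hepa 1-6 (vertical axis) against the change in AML12 (horizontal axis), both in log2 ratio, with 1 point per gene for 16549 genes, the dotted line marking equal changes and colours marking the opposite and line-specific classes. Saa3 lies farthest right at 9.12 in AML12 and -0.38 in Hepa 1-6, while Bcl6, Ddit3 and Slc2a5 lie at the upper left, where Hepa 1-6 rose and AML12 fell.

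Of the 5 largest differences among all genes, 4 were in acute-phase genes, which the liver is known to switch on in inflammation through cytokines, NF-kB, STAT3 and C/EBP factors. Of 20 tested members of a list of acute-phase proteins, 15 rose in AML12 with a median change of 0.83, whereas 6 rose and 1 fell in Hepa 1-6 with a median of 0.26. Of all genes, 28% rose in AML12, and 27.9% rose and 23% fell in Hepa 1-6. The difference was lower in Hepa 1-6 for 9 members and higher for 0, against 12.8% and 17.2% of all genes, with a median of -0.38 over the list and 0.0326 over all genes. Under the alternatives, 7 to 10 members were lower and 0 or 1 higher. Promoters are shown for the 4 genes that led it, because they stand together in expression. They are the 250 bases before the start site that the RefSeq table gives on GRCm38.p6, written 5′ to 3′ on the gene's strand, with capitals marking matches on either strand to the C/EBP motif TTNNGNAA. The windows are chr7:46742981-46743230 for Saa1 and chr7:46715677-46715926 for Saa3 on the minus strand, chr7:46751583-46751832 for Saa2 on the plus strand, and chr2:32387740-32387989 for Lcn2 on the minus strand.
Saa1: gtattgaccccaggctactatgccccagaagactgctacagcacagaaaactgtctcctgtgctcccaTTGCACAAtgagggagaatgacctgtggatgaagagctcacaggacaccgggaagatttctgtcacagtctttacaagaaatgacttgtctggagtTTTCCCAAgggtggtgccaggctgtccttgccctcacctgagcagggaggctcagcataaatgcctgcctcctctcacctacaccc
Saa2: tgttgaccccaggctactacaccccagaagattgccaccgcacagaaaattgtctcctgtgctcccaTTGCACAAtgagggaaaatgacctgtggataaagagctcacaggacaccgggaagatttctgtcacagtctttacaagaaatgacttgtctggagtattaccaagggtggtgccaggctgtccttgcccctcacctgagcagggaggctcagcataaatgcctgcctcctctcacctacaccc
Saa3: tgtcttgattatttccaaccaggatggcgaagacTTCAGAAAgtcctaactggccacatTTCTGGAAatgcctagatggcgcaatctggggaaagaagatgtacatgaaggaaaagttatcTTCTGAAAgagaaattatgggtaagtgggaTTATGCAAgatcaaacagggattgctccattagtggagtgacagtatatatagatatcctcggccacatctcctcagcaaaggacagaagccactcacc
Lcn2: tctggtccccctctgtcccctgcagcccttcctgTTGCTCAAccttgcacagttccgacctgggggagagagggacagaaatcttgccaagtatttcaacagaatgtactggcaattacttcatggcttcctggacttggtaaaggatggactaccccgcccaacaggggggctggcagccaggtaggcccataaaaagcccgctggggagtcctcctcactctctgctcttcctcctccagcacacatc
Of the 9 members that were lower in Hepa 1-6, 7 had a promoter on file, and the C/EBP motif was found for all 7. It was found for 12 of the 15 list members with a promoter on file, and in 36.8% of 32851 single promoters of the same length. An NF-kB consensus was found for 0 of these 15 members and in 3.9% of all single promoters. A member counted if any of its promoters matched, so the shares of members and of single promoters are unlike measures. A match is a description of letters and not of binding, and no match says nothing of the factor. The windows of Saa1 and Saa2 were identical at 238 of 250 aligned bases (95.2%), those of Saa1 and Saa3 at 145. Saa1 and Saa2 are near-identical genes, so their features cannot be taken to tell them apart, and the counts above hold both.

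Saa3, an inducible serum amyloid A made in liver and macrophages, had log2 ratios of -4.22 and -4.38 in Hepa 1-6 with ActD, against -3.89 and -3.95 in Hepa 1-6 controls. In AML12 it had 5.25 and 5.02 with ActD, against -3.89 and -4.09 in controls. The controls of both lines were thus alike and low, and only AML12 with ActD was high. Its change was -0.38 in Hepa 1-6 and 9.12 in AML12, a difference of -9.50 ± 0.16 (adjusted p = 7.4e-08). The fall in Hepa 1-6 was small and between low ratios. Of other genes low there, the leukocyte markers Fcer1g and Tyrobp changed by -0.37 and -0.30 in Hepa 1-6, and the stellate cell marker Lum by 0.65. Whether the fall is particular to Saa3 was not tested. Saa1, an apolipoprotein of high-density lipoprotein in the acute phase, had -1.04 and -1.01 in Hepa 1-6 with ActD, against -1.12 and -1.28 in Hepa 1-6 controls, and 5.51 and 5.41 in AML12 with ActD, against -1.38 and -1.30 in AML12 controls. The difference was -6.63 ± 0.10 (adjusted p = 6.7e-08), and its 2 features gave -8.12 and -5.14. Lcn2, which encodes lipocalin 2, a protein that binds bacterial iron carriers, had -2.69 and -2.80 in Hepa 1-6 with ActD, against -2.90 and -2.87 in Hepa 1-6 controls, and 5.18 and 5.02 in AML12 with ActD, against -1.11 and -0.84 in AML12 controls. For Saa1 and Lcn2 alike, the 4 Hepa 1-6 arrays lay close together, and the AML12 arrays with ActD lay far above all others.

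Saa2 rose in both lines, by 0.63 in Hepa 1-6 and by 6.08 in AML12, and so moved in the same direction by different amounts (difference -5.45 ± 0.26, adjusted p = 1.9e-05). Saa1 changed by 0.18 in Hepa 1-6, which did not pass in limma (adjusted p = 0.065). Their different classes therefore rest on the threshold and do not set the 2 genes apart. Saa4, the constitutive member of the family, changed by 0.13 in Hepa 1-6 and 4.43 in AML12. Outside the serum amyloid genes, Orm2, which encodes the plasma glycoprotein orosomucoid, changed by 0.41 in Hepa 1-6 and 3.41 in AML12, Hp (haptoglobin, which binds free haemoglobin) by 0.12 and 2.46, and Hpx (hemopexin, which binds haem) by -0.08 and 0.86. These and the other list members cited with pairs of changes below are further examples, chosen after their values were seen. Not all of the list split the lines: Lbp, the lipopolysaccharide-binding protein gene, rose by 0.73 in Hepa 1-6 and 0.53 in AML12 with no difference past the threshold, and the fibrinogen gene Fgb passed in neither line.

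**Figure D2:**
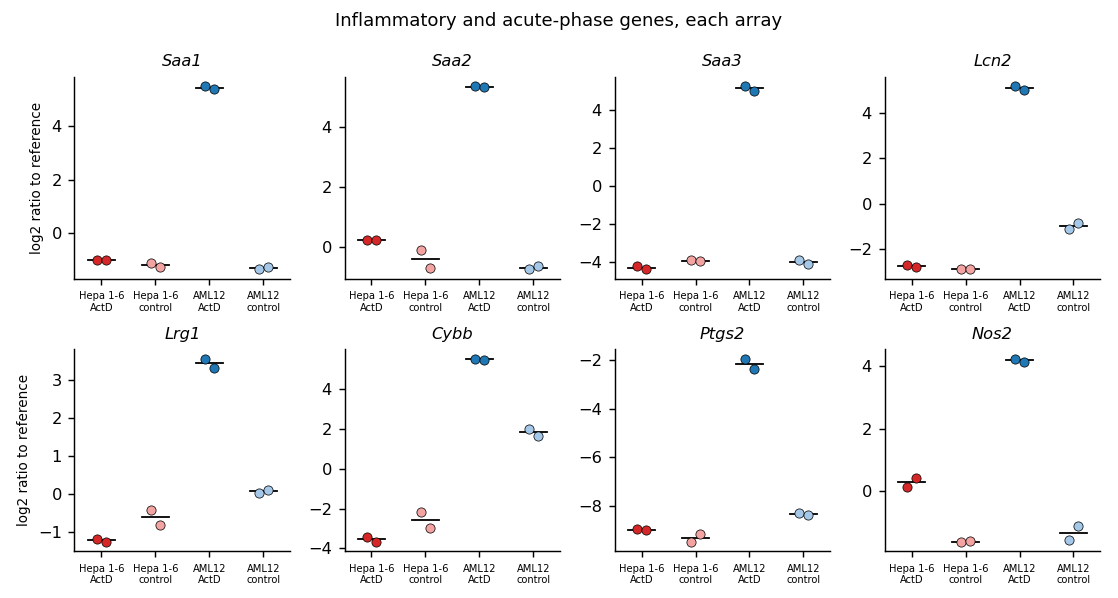
Log2 ratio to the common reference on each array (points, 2 per group) with the group mean (bar) for 8 inflammatory and acute-phase genes in Hepa 1-6 with ActD, Hepa 1-6 control, AML12 with ActD and AML12 control. In every panel the 2 AML12 arrays with ActD lie above both AML12 controls, by 9.12 on average for Saa3 and 3.37 for Lrg1, while in Hepa 1-6 the changes run from -0.97 for Cybb to 1.91 for Nos2.

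Other genes of innate immunity fell in Hepa 1-6 and rose in AML12. Lrg1, a secreted glycoprotein of the acute phase, had -1.19 and -1.27 in Hepa 1-6 with ActD, against -0.43 and -0.82 in Hepa 1-6 controls, and 3.55 and 3.30 in AML12 with ActD, against 0.02 and 0.10 in AML12 controls (difference -3.97 ± 0.27, adjusted p = 6.8e-05). Cybb, the catalytic subunit of the phagocyte NADPH oxidase, had -3.42 and -3.67 in Hepa 1-6 with ActD, against -2.17 and -2.98 in Hepa 1-6 controls, and 5.53 and 5.46 in AML12 with ActD, against 1.98 and 1.67 in AML12 controls (difference -4.64 ± 0.46, adjusted p = 0.00037). The groups did not overlap in either line. Ch25h, which makes 25-hydroxycholesterol, changed by -0.38 in Hepa 1-6 and 2.54 in AML12, and Acod1, which makes itaconate, by -0.41 and 2.71, though its mean of -5.22 in Hepa 1-6 with ActD leaves its size there uncertain. The change of Ch25h in Hepa 1-6 was also small and between low ratios, from -4.27 in controls to -4.65 with ActD. Cybb is a leukocyte gene by background. Of the 7 leukocyte markers tested, 2 had a difference past the threshold, against 30% of all genes. These were Ptprc at 0.92, with all group means below -5, and Fcer1g at -0.33. The part of other cells in this result was not tested.

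The same class held genes of other functions. Prss12, a secreted serine protease of neurons, changed by -1.39 in Hepa 1-6 and 1.76 in AML12 (difference -3.15 ± 0.59, adjusted p = 0.0062). Prdm8, a transcriptional regulator of the PRDM family, changed by -0.65 and 2.32, and Rasl12, a small GTPase of the Ras family, by -1.22 and 1.71. Nepn, the extracellular matrix protein nephrocan, changed by -1.74 in Hepa 1-6 and 0.84 in AML12. Spry4, an inhibitor of receptor tyrosine kinase signalling, had -0.69 and 0.06 in Hepa 1-6 with ActD, against 0.68 and 0.78 in Hepa 1-6 controls, and -2.0 and -1.25 in AML12 with ActD, against -5.38 and -4.98 in AML12 controls. The large rise in AML12 therefore starts from the low end of the ratios. Abca1, the cholesterol exporter, changed by -0.87 in Hepa 1-6 and 0.68 in AML12, Id3, an inhibitor of DNA-binding factors, by -1.17 and 0.62, and Tnfrsf23, a decoy receptor for a death ligand, by -0.93 and 0.69.

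Beyond acute-phase proteins, and leaving out predicted genes and those with a group mean at or below -5, Pglyrp1 led the rises of AML12 that Hepa 1-6 lacked. This peptidoglycan recognition protein had 4.02 and 3.99 in Hepa 1-6 with ActD, against 4.19 and 3.89 in Hepa 1-6 controls, and 4.25 and 4.15 in AML12 with ActD, against -0.56 and -0.88 in AML12 controls. AML12 with ActD thus came to the level that Hepa 1-6 had with or without it. Vnn3, a pantetheinase, changed by -0.36 in Hepa 1-6 and 4.25 in AML12, Itln1, the lectin intelectin, by 0.36 and 4.48, and Hcar2, the receptor for niacin and hydroxybutyrate, by -0.31 and 3.75. Ppm1n, a protein phosphatase gene, changed by -0.14 in Hepa 1-6, where its controls stood at -4.58 and -1.72, and by 4.43 in AML12. Its difference of -4.57 ± 1.08 (adjusted p = 0.016) was no longer past the threshold without the first AML12 control. Wfdc18, a secreted protease inhibitor of the same-direction class, rose by 0.60 in Hepa 1-6 and 5.02 in AML12.

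Inflammatory enzymes and cytokines did not all side with AML12. Of 28 chemokines and cytokines, 8 were more positive and 9 less positive in Hepa 1-6, together 60.7% against 30% of all genes. There were 17 rises in Hepa 1-6 and 18 in AML12, against 27.9% and 28% of all genes. Without the first Hepa 1-6 control the less positive numbered 5. Cxcl5, a neutrophil attractant, had 1.79 and 1.97 in Hepa 1-6 with ActD, against -1.36 and -1.25 in Hepa 1-6 controls, and 6.94 and 6.74 in AML12 with ActD, against 0.03 and 0.11 in AML12 controls. Cxcl3, of the same family, had 7.08 and 7.41 in Hepa 1-6 with ActD, against 7.08 and 6.98 in Hepa 1-6 controls, and 7.57 and 7.47 in AML12 with ActD, against 3.14 and 3.62 in AML12 controls. Both thus rose more in AML12, but Cxcl3 was already high in Hepa 1-6 before treatment.

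Chemokines of the opposite leaning were Cxcl1 and Cxcl10. Cxcl1, another neutrophil attractant, had 1.12 and 1.19 in Hepa 1-6 with ActD, against -2.79 and -2.84 in Hepa 1-6 controls, and 0.51 and 0.19 in AML12 with ActD, against -0.62 and -0.56 in AML12 controls (difference 3.02 ± 0.24, adjusted p = 0.00012). Cxcl10, which attracts T cells and is induced by interferon, had 3.45 and 3.69 in Hepa 1-6 with ActD, against 2.0 and 2.08 in Hepa 1-6 controls, and -1.74 and -1.74 in AML12 with ActD, against -0.64 and -0.91 in AML12 controls. It rose in Hepa 1-6 and fell in AML12 with no overlap in either line (difference 2.49 ± 0.32, adjusted p = 0.0011). Il11 changed by 2.13 in Hepa 1-6 and 0.07 in AML12, and Ccl2, which attracts monocytes, by 2.58 and 0.44. Cxcl2 rose by 4.09 in Hepa 1-6 and 4.20 in AML12, and its difference of -0.11 ± 0.36 did not pass (adjusted p = 0.85).

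Of 15 inducible inflammatory enzymes and adhesion genes, 5 were less positive and 3 more positive in Hepa 1-6, together 53.3% against 30% of all genes. Ptgs2, the inducible cyclooxygenase, had -8.98 and -9.01 in Hepa 1-6 with ActD, against -9.49 and -9.18 in Hepa 1-6 controls, and -1.92 and -2.34 in AML12 with ActD, against -8.30 and -8.37 in AML12 controls. Its 11 features gave differences of -6.97 to -4.32, and 3 of its 4 groups lay at the low end of the ratios. Nos2, the inducible nitric oxide synthase, rose in both lines, by 1.91 in Hepa 1-6 and 5.55 in AML12 (difference -3.64 ± 0.22, adjusted p = 3.9e-05). Icam1 and Vcam1, which encode adhesion molecules, rose in both lines, by 1.61 and 1.11 in Hepa 1-6 and by 1.72 and 1.03 in AML12, with no difference past the threshold.

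Regulators of NF-kB, the factor behind many inflammatory genes, also split. Of 21 subunits and inhibitors, 4 were more positive and 7 less positive in Hepa 1-6, together 52.4% against 30% of all genes. The inhibitor genes Nfkbia and Tnfaip3, known as early targets and brakes of NF-kB, fell more in AML12. Nfkbia had -2.49 and -2.51 in Hepa 1-6 with ActD, against -0.98 and -0.87 in Hepa 1-6 controls, and -3.29 and -3.42 in AML12 with ActD, against -0.71 and -0.70 in AML12 controls. Tnfaip3 fell by 0.53 in Hepa 1-6 and by 1.89 in AML12. Tnfaip2, a TNF-induced gene, rose by 1.01 in Hepa 1-6 and 3.0 in AML12, and Zc3h12a, an RNase that destroys cytokine messages, by 0.50 and 2.24.

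Interferon-stimulated genes followed no single line. Of 37 tested, 9 were more positive and 10 less positive in Hepa 1-6, together 51.4% against 30% of all genes. The guanylate-binding protein genes Gbp6 (0.79 in Hepa 1-6 and 3.07 in AML12) and Gbp3 (1.79 and 5.75) rose more in AML12, the second from AML12 controls at -7.44 and -7.54, so that its size is uncertain. Mx2, an antiviral GTPase, rose by 0.42 in Hepa 1-6 and fell by 1.38 in AML12. Ifit1, an RNA-binding antiviral protein, had -4.55 and -4.82 in Hepa 1-6 with ActD, against -8.01 and -7.04 in Hepa 1-6 controls, and -3.05 and -2.43 in AML12 with ActD, against -2.63 and -1.42 in AML12 controls, where the arrays overlapped.

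The genes that rose in Hepa 1-6 and fell in AML12 included regulators of transcription and stress. Bcl6, a transcriptional repressor, had -0.77 and -0.70 in Hepa 1-6 with ActD, against -1.63 and -1.52 in Hepa 1-6 controls, and -2.01 and -2.05 in AML12 with ActD, against 0.37 and 0.38 in AML12 controls. Of the control groups the higher was that of AML12, and with ActD the order was turned round (difference 3.24 ± 0.09, adjusted p = 2e-06). Ddit3, which encodes CHOP, a stress factor linked to cell death, had 1.38 and 1.30 in Hepa 1-6 with ActD, against -1.14 and -1.07 in Hepa 1-6 controls, and -2.49 and -2.51 in AML12 with ActD, against -1.77 and -1.87 in AML12 controls (difference 3.12 ± 0.09, adjusted p = 2.9e-06). Sox9, a factor of bile duct cells and progenitors and one of the biliary markers, changed by 0.48 in Hepa 1-6 and -2.36 in AML12. Of the 4 biliary markers tested 3 had a difference past the threshold, against 30% of all genes. Onecut2, another liver and biliary factor, changed by 1.28 and -0.46.

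Metabolic enzymes, transporters and proteases led the same class, with predicted genes left out. Hsd3b4 and Hsd3b5, closely related steroid dehydrogenase genes whose features may not be told apart, rose by 1.58 and 1.43 in Hepa 1-6 and fell by 2.19 and 2.1 in AML12. Hsd3b4 had 3.30 and 3.36 in Hepa 1-6 with ActD, against 1.62 and 1.87 in Hepa 1-6 controls, and 2.16 and 2.30 in AML12 with ActD, against 4.29 and 4.55 in AML12 controls. Slc2a5, the fructose transporter, had 1.43 and 1.46 in Hepa 1-6 with ActD, against -1.07 and -1.60 in Hepa 1-6 controls, and 3.0 and 2.90 in AML12 with ActD, against 3.62 and 3.42 in AML12 controls. The gap between the lines was therefore smaller with ActD for Slc2a5, and turned round for Hsd3b4.

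Prss8, the membrane serine protease prostasin, had 1.03 and 0.91 in Hepa 1-6 with ActD, against 0.20 and 0.01 in Hepa 1-6 controls, and 0.12 and 0.18 in AML12 with ActD, against 2.75 and 2.87 in AML12 controls (difference 3.52 ± 0.20, adjusted p = 3.6e-05). Ivl, involucrin of the epithelial envelope, changed by 1.33 in Hepa 1-6 and -2.24 in AML12, Slc16a9, a carnitine and creatine transporter, by 1.45 and -2.06, Btbd17 by 1.71 and -1.78, and Atp6v1c2, a subunit of the proton pump V-ATPase, by 2.61 and -0.87. The differences of these 4 were 3.56, 3.5, 3.5 and 3.48. Over the class, the median gap between the lines (Hepa 1-6 minus AML12) was 0.86 with ActD and -0.22 in controls, and the gap was smaller with ActD for 139 of 348 genes. The rule of the class makes the gap more positive with ActD, so this shift is a description and no separate result. The share of all genes with a smaller gap was not counted.

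**Figure D3:**
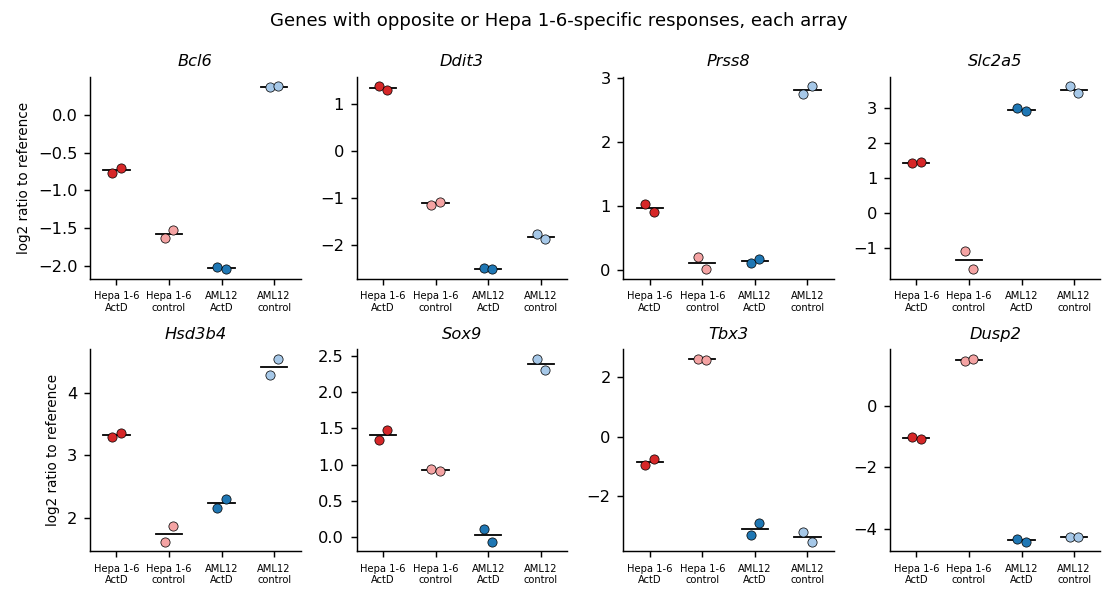
Log2 ratio to the common reference on each array (points, 2 per group) with the group mean (bar) for 8 genes in Hepa 1-6 with ActD, Hepa 1-6 control, AML12 with ActD and AML12 control. The first 6 rose in Hepa 1-6 and fell in AML12, with changes of 0.84 and -2.40 for Bcl6, while Tbx3 and Dusp2 fell in Hepa 1-6 by 3.46 and 2.54 and were low in AML12 with and without ActD.

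Some rises were seen in Hepa 1-6 and not in AML12. Bend5, a BEN domain protein gene, had 0.60 and 0.52 in Hepa 1-6 with ActD, against -3.13 and -2.81 in Hepa 1-6 controls, and -3.19 and -4.72 in AML12 with ActD, against -3.75 and -3.59 in AML12 controls (difference 3.82 ± 0.58, adjusted p = 0.0025). Slc6a4, the serotonin transporter, had 3.79 and 3.69 in Hepa 1-6 with ActD, against 0.88 and 0.57 in Hepa 1-6 controls, and -0.91 and -0.52 in AML12 with ActD, against -0.86 and -0.17 in AML12 controls. In both genes the AML12 arrays overlapped. Lrp2, the endocytic receptor megalin, changed by 2.50 in Hepa 1-6 and -0.15 in AML12, Mtmr7, a lipid phosphatase of the myotubularin family, by 2.33 and -0.37, and Colec10, a liver collectin, by 2.12 and -0.32. Kel, Tmie and Lce1f followed, with changes of 2.13 to 2.32 in Hepa 1-6. Sprr2h, an epithelial envelope gene of the same-direction class, rose by 4.10 in Hepa 1-6 and 0.90 in AML12.

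Falls seen in Hepa 1-6 and not in AML12 had a median gap between the lines (Hepa 1-6 minus AML12) of -0.30 with ActD and 0.21 in controls. Here the rule of the class makes the gap less positive with ActD. Tbx3, a T-box factor and Wnt target of liver, had -0.96 and -0.74 in Hepa 1-6 with ActD, against 2.63 and 2.59 in Hepa 1-6 controls, and -3.29 and -2.90 in AML12 with ActD, against -3.19 and -3.53 in AML12 controls (difference -3.72 ± 0.23, adjusted p = 4.5e-05). Dusp2, a phosphatase that switches off MAP kinases, had -1.0 and -1.06 in Hepa 1-6 with ActD, against 1.48 and 1.54 in Hepa 1-6 controls, and -4.32 and -4.42 in AML12 with ActD, against -4.25 and -4.25 in AML12 controls. Both genes stood low in AML12 on all 4 arrays. Ppp1r3c, which targets a phosphatase to glycogen, changed by -3.26 in Hepa 1-6 and 0.37 in AML12, Snai1, a repressor of epithelial genes, by -1.99 and 0.13, and Fam43a by -2.40 and -0.12. In AML12 controls they averaged -3.92, -3.23 and -1.36, against 4.83, -0.37 and 0.70 in Hepa 1-6 controls.

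Dcn, the matrix proteoglycan decorin and one of the stellate cell markers, had 2.07 and 1.95 in Hepa 1-6 with ActD, against 4.19 and 4.38 in Hepa 1-6 controls, and -3.34 and -3.02 in AML12 with ActD, against -3.54 and -3.39 in AML12 controls. Its 2 features gave differences of -4.82 and -0.30. The 7 stellate cell and fibroblast markers had median levels of -4.25 and -4.90 in Hepa 1-6 with ActD and without and of -4.82 and -5.05 in AML12. Of the 7, 3 had a difference past the threshold, against 30% of all genes, and their part in the result was not tested. Abcd2, a peroxisomal fatty acid transporter, and Asphd2 fell in Hepa 1-6 by 1.93 and 1.74. In the heat shock list, Hspa1a changed by -1.04 in Hepa 1-6 and 0.23 in AML12, but its 4 features ranged from -3.21 to 0.09 and the feature with the highest ratio alone did not pass.

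Falls seen in AML12 and not in Hepa 1-6 were found for 4.34% of all genes, for 19 of 109 zinc finger genes and for 14 of 61 cell cycle genes. Among the largest, Ripk4, a kinase of epithelial differentiation, had -3.52 and -3.75 in Hepa 1-6 with ActD, against -3.49 and -3.52 in Hepa 1-6 controls, and -0.41 and -0.66 in AML12 with ActD, against 2.76 and 2.86 in AML12 controls (difference 3.22 ± 0.15, adjusted p = 1.8e-05). Ddit4, an inhibitor of mTORC1 induced by hypoxia, p53 and glucocorticoids, had -0.63 and -0.52 in Hepa 1-6 with ActD, against -0.55 and -0.50 in Hepa 1-6 controls, and -3.69 and -3.65 in AML12 with ActD, against -0.83 and -1.03 in AML12 controls. The controls of the lines lay close for Ddit4, unlike Ripk4, and AML12 alone lost it. Pdgfb, a growth factor for mesenchymal cells, likewise had 1.55 and 1.74 in Hepa 1-6 with ActD, against 1.74 and 1.61 in Hepa 1-6 controls, and -1.02 and -1.10 in AML12 with ActD, against 1.14 and 1.31 in AML12 controls.

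Adamts1, a secreted protease that cleaves proteoglycans, changed by 0.13 in Hepa 1-6 and -2.80 in AML12, Tiparp, a target of the aryl hydrocarbon receptor, by 0.08 and -2.20, Srfbp1, a cofactor of serum response factor, by -0.03 and -2.55, and Zkscan4, a zinc finger gene, by 0.17 and -3.07. In Hepa 1-6 controls these genes averaged -2.62, -1.59, 0.85 and -2.30, against 1.00, -1.92, -0.81 and 1.69 in AML12 controls. Ifit1bl1 changed by -0.04 in Hepa 1-6 and -2.79 in AML12, but its adjusted p of 0.049 was lost in 15 of the alternatives. Among genes that fell in both lines, the fall was larger in AML12 for Ccn2 (-1.53 in Hepa 1-6 and -5.76 in AML12), a matrix protein gene induced by YAP and TGF-beta, for Plk2 (-0.58 and -4.35), a kinase induced by p53 and serum, and for Dusp1 (-0.33 and -3.85), another MAP kinase phosphatase. Their differences were 4.23 ± 0.20, 3.77 ± 0.18 and 3.52 ± 0.12.

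Many short-lived regulators fell in both lines. Of 36 immediate-early genes, whose messages are switched on within minutes and decay fast, 18 were more positive in Hepa 1-6 and 5 less positive, against 17.2% and 12.8% of all genes, with a median difference of 0.41. There were 19 falls in Hepa 1-6 and 26 in AML12, against 23% and 25.5% of all genes. With the lowest 20% of mean ratios left out, 6 of 13 were more positive and 3 less. Gadd45b, which relays stress to MAP kinases, had -0.12 and -0.18 in Hepa 1-6 with ActD, against -1.41 and -1.30 in Hepa 1-6 controls, and -1.70 and -1.71 in AML12 with ActD, against -0.25 and -0.41 in AML12 controls, and so rose in one line and fell in the other. Ier3 (1.11 in Hepa 1-6 and -1.26 in AML12), Gadd45a (0.69 and -0.83) and the factor gene Egr1 (0.58 and -0.58) did the same, Egr1 with a mean of -5.36 in AML12 with ActD. Phlda1 had the larger fall in Hepa 1-6, with changes of -2.36 in Hepa 1-6 and -0.83 in AML12. Myc, a short-lived growth regulator, changed by -2.46 in Hepa 1-6 and -2.31 in AML12, and its difference of -0.16 ± 0.14 did not pass (adjusted p = 0.46).

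Feedback inhibitors of growth factor signalling were divided, with 9 of 29 more positive and 8 less positive in Hepa 1-6, together 58.6% against 30% of all genes. Errfi1, an inhibitor of the EGF receptor, fell by 0.94 in Hepa 1-6 and by 3.71 in AML12, whereas Socs1, an inhibitor of JAK kinases, changed by -1.48 in Hepa 1-6 and 0.05 in AML12. Of 19 Wnt and TGF-beta feedback genes, 5 were more and 5 less positive, together 52.6%. Bambi, a decoy TGF-beta receptor, changed by -0.88 in Hepa 1-6 and -3.5 in AML12, and Id1 by -3.21 and -1.23. Both of these lists thus held members of each leaning.

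Zinc finger genes, many of them repressors of the KRAB family with short-lived messages, fell in AML12 more than in Hepa 1-6. Of 109 tested, 59 fell in Hepa 1-6 and 91 in AML12, against 23% and 25.5% of all genes. Median changes were -0.49 in Hepa 1-6 and -1.15 in AML12. The difference was more positive in Hepa 1-6 for 59 and less positive for 2, against 17.2% and 12.8% of all genes, with a median of 0.64 and a range of 0.57 to 0.72 over the alternatives. Zfp708 had -0.75 and -0.52 in Hepa 1-6 with ActD, against 0.22 and 0.58 in Hepa 1-6 controls, and -3.05 and -2.90 in AML12 with ActD, against 0.54 and 0.66 in AML12 controls. The controls of both lines lay close together, and the AML12 arrays with ActD lay lowest. Zfp951 and Zfp334 were the exceptions past the threshold, with differences of -0.58 and -2.04. The 2 features of Zfp951 gave -1.0 and -0.15, and it was lost with the feature of highest mean ratio. Zfp334 was lost in 6 of the alternatives, each of which left out an array.

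Cell cycle genes fell in AML12 more than in Hepa 1-6. Of 61 tested, 30 fell and 7 rose in Hepa 1-6, against 23% and 27.9% of all genes. In AML12, 53 fell and 0 rose, against 25.5% and 28%. The difference was more positive in Hepa 1-6 for 27 and less positive for 2, against 17.2% and 12.8% of all genes (median difference 0.57, and 0.30 under quantile normalization). Aurka, a kinase of the mitotic spindle, had -0.26 and -0.31 in Hepa 1-6 with ActD, against 0.03 and 0.06 in Hepa 1-6 controls, and -2.48 and -2.51 in AML12 with ActD, against -0.75 and -0.66 in AML12 controls (difference 1.45 ± 0.12, adjusted p = 0.00019). Kif20a, a motor protein of cell division, rose by 0.31 in Hepa 1-6 and fell by 1.13 in AML12. Mki67, a marker of cycling cells, changed by 0.05 and -0.98. Plk4, which builds centrioles, was less positive in Hepa 1-6 (difference -0.66 ± 0.15), but its 3 features ranged from -3.01 to 0.86 and the feature with the highest ratio gave 0.17.

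Targets of p53, the factor that DNA damage activates, differed in 15 of 28, 12 of them more positive in Hepa 1-6 and 3 less, against 30%, 17.2% and 12.8% of all genes. With the lowest 20% of mean ratios left out, 8 of 23 were more positive and 3 less. Mdm2, the ubiquitin ligase that p53 induces and that degrades it, had 2.73 and 2.58 in Hepa 1-6 with ActD, against 1.64 and 1.69 in Hepa 1-6 controls, and 0.40 and 0.17 in AML12 with ActD, against 0.97 and 0.91 in AML12 controls (difference 1.65 ± 0.12, adjusted p = 9.8e-05). Xpc, a sensor of DNA damage, rose by 0.73 in Hepa 1-6 and fell by 0.46 in AML12. Fas, a death receptor, rose in both lines and more in AML12, 1.31 in Hepa 1-6 and 2.06 in AML12. Pmaip1, which encodes the death factor NOXA, rose by 1.86 in Hepa 1-6 and 1.68 in AML12 with no difference past the threshold. Among 24 genes of the BCL2 family and other death regulators, 7 were more positive and 3 less positive in Hepa 1-6, together 41.7% against 30% of all genes. Bnip3, a mitochondrial protein that hypoxia induces, rose by 1.86 in Hepa 1-6 and 3.38 in AML12.

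Stress genes of the unfolded protein and integrated stress responses had 10 of 30 members more positive and 1 less positive in Hepa 1-6. Together these were 36.7%, against 30% of all genes, and quantile normalization left 8 and 2. Besides Ddit3, Ppp1r15a, which reverses the block on translation, rose by 1.13 in Hepa 1-6 and fell by 0.61 in AML12, and Chac1, which degrades glutathione, fell by 0.97 in Hepa 1-6 and by 3.24 in AML12. The chaperone gene Hspa5 changed by 0.53 in Hepa 1-6 and -0.26 in AML12. The list's median difference of 0.12 was -0.08 under quantile normalization, so no direction is given for the list. Of 29 NRF2 and glutathione genes, 7 were more and 10 less positive, together 58.6% against 30% of all genes. Osgin1 fell by 0.43 in Hepa 1-6 and by 3.24 in AML12, and Abcc3, an exporter of conjugates, rose by 0.40 and 1.49.

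Falls among glucocorticoid-induced genes were seen in both lines, and in more members in AML12. Of 26 tested, 10 fell and 5 rose in Hepa 1-6, against 23% and 27.9% of all genes. In AML12, 16 fell and 2 rose, against 25.5% and 28%. Median changes were -0.22 in Hepa 1-6 and -1.04 in AML12. Bcl6, Ddit4 and Dusp1, given above, are members too. The difference was more positive in Hepa 1-6 for 13 and less positive for 1, Lcn2, against 17.2% and 12.8% of all genes, with a median of 1.11. With the lowest 20% of mean ratios left out, 13 members were tested, 6 were more positive and 0 less positive, and the median was 0.64. Tsc22d3, which encodes the anti-inflammatory protein GILZ, had -1.07 and -1.08 in Hepa 1-6 with ActD, against -1.36 and -1.35 in Hepa 1-6 controls, and 0.45 and 0.35 in AML12 with ActD, against 2.01 and 2.01 in AML12 controls. Pdk4, which turns pyruvate away from oxidation, had 2.24 and 2.24 in Hepa 1-6 with ActD, against 0.77 and 0.91 in Hepa 1-6 controls, and -0.51 and -0.65 in AML12 with ActD, against 0.32 and 0.24 in AML12 controls. Both rose in Hepa 1-6 and fell in AML12, with differences of 1.89 ± 0.08 and 2.26 ± 0.16. Angptl4, an inhibitor of lipoprotein lipase, fell in both, by 0.48 in Hepa 1-6 and by 3.01 in AML12, while Fkbp5, the chaperone gene that glucocorticoids induce, fell by 0.61 in Hepa 1-6 and by 0.71 in AML12 with no difference past the threshold.

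Genes of cholesterol and fatty acid synthesis were less positive in Hepa 1-6. SREBP factors switch these genes on through sterol elements when cell sterol is low. Of 35 tested, 23 fell and 4 rose in Hepa 1-6, against 23% and 27.9% of all genes. In AML12, 11 fell and 9 rose, against 25.5% and 28%. Median changes were -0.50 in Hepa 1-6 and 0.05 in AML12. The difference was less positive in Hepa 1-6 for 21 and more positive for 1, against 12.8% and 17.2% of all genes, and for 17 to 25 and 0 or 1 under the alternatives. Of the 21, 10 were falls in Hepa 1-6 alone, a class that held 2.99% of all genes. Fdps, which makes farnesyl diphosphate, had -0.24 and -0.23 in Hepa 1-6 with ActD, against 1.27 and 1.32 in Hepa 1-6 controls, and 1.0 and 1.02 in AML12 with ActD, against 1.49 and 1.57 in AML12 controls (difference -1.01 ± 0.08, adjusted p = 0.00012). Idi1, the isopentenyl diphosphate isomerase, had 0.33 and 0.34 in Hepa 1-6 with ActD, against 1.08 and 1.15 in Hepa 1-6 controls, and 2.57 and 2.51 in AML12 with ActD, against 2.47 and 2.49 in AML12 controls. It fell in Hepa 1-6 and changed by 0.06 in AML12, which did not pass.

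Scd1, the enzyme that makes monounsaturated fatty acids, had 0.70 and 0.83 in Hepa 1-6 with ActD, against 1.32 and 1.35 in Hepa 1-6 controls, and 0.54 and 0.34 in AML12 with ActD, against -0.24 and -0.24 in AML12 controls, and so fell in one line and rose in the other (difference -1.26 ± 0.11, adjusted p = 0.0002). Pmvk, a kinase of the mevalonate pathway, changed by -0.63 in Hepa 1-6 and 0.47 in AML12, and Lss, which closes the sterol rings, by -0.50 and 0.40. Msmo1, a sterol oxidase, changed by -1.77 and -0.64, but its 2 features gave differences of -2.17 and -0.11. Sqle fell by 1.21 in Hepa 1-6 and by 0.96 in AML12, a difference that did not pass. Acacb, the mitochondrial acetyl-CoA carboxylase, was the exception at 0.70 ± 0.22, lost in 16 of the alternatives. The sterol motif TCACNCCAC was found, on either strand, for 1 of the 28 list members with a promoter on file and in 1.05% of all single promoters. These 2 shares are again unlike measures. The window with it, of Hmgcs1, the first enzyme that commits carbon to the pathway, is shown for chr13:119690101-119690350 of GRCm38.p6 on the plus strand, with the match in capitals.
Hmgcs1: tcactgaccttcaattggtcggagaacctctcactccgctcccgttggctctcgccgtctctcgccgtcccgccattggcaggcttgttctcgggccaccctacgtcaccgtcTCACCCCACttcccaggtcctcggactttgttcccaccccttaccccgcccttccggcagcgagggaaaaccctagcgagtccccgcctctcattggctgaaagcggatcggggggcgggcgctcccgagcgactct
Hmgcs1 had 0.13 and 0.05 in Hepa 1-6 with ActD, against 1.03 and 1.10 in Hepa 1-6 controls, and 0.99 and 0.82 in AML12 with ActD, against 1.08 and 1.34 in AML12 controls (difference -0.67 ± 0.13, adjusted p = 0.0081).

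Many glycolysis and hypoxia-inducible genes rose in both lines and rose more in AML12. Of 34 tested, 21 rose and 4 fell in Hepa 1-6, against 27.9% and 23% of all genes. In AML12, 29 rose and 2 fell, against 28% and 25.5%. Median changes were 0.57 in Hepa 1-6 and 1.13 in AML12. The difference was less positive in Hepa 1-6 for 17 and more positive for 3, against 12.8% and 17.2% of all genes, and for 7 and 1 of the 14 left without the lowest 20% of mean ratios, with a median of -0.53 and of -0.81 under quantile normalization. Slc16a3, the lactate exporter, had -4.12 and -4.15 in Hepa 1-6 with ActD, against -3.75 and -3.85 in Hepa 1-6 controls, and -1.78 and -2.0 in AML12 with ActD, against -3.62 and -3.75 in AML12 controls. Tpi1, the triose phosphate isomerase, had 0.08 and -0.03 in Hepa 1-6 with ActD, against 1.10 and 0.95 in Hepa 1-6 controls, and 0.06 and -0.02 in AML12 with ActD, against -0.23 and -0.23 in AML12 controls. These 2 had opposite responses, with differences of -2.13 ± 0.12 and -1.26 ± 0.10. The change of Slc16a3 in Hepa 1-6, -0.33, was small and between low ratios. Pfkp, the platelet phosphofructokinase, changed by -0.19 in Hepa 1-6 and 1.69 in AML12, and Hk2, the inducible hexokinase, rose by 0.86 and 2.24. Ndrg1 went the other way, with rises of 2.52 in Hepa 1-6 and 1.10 in AML12.

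**Figure D4:**
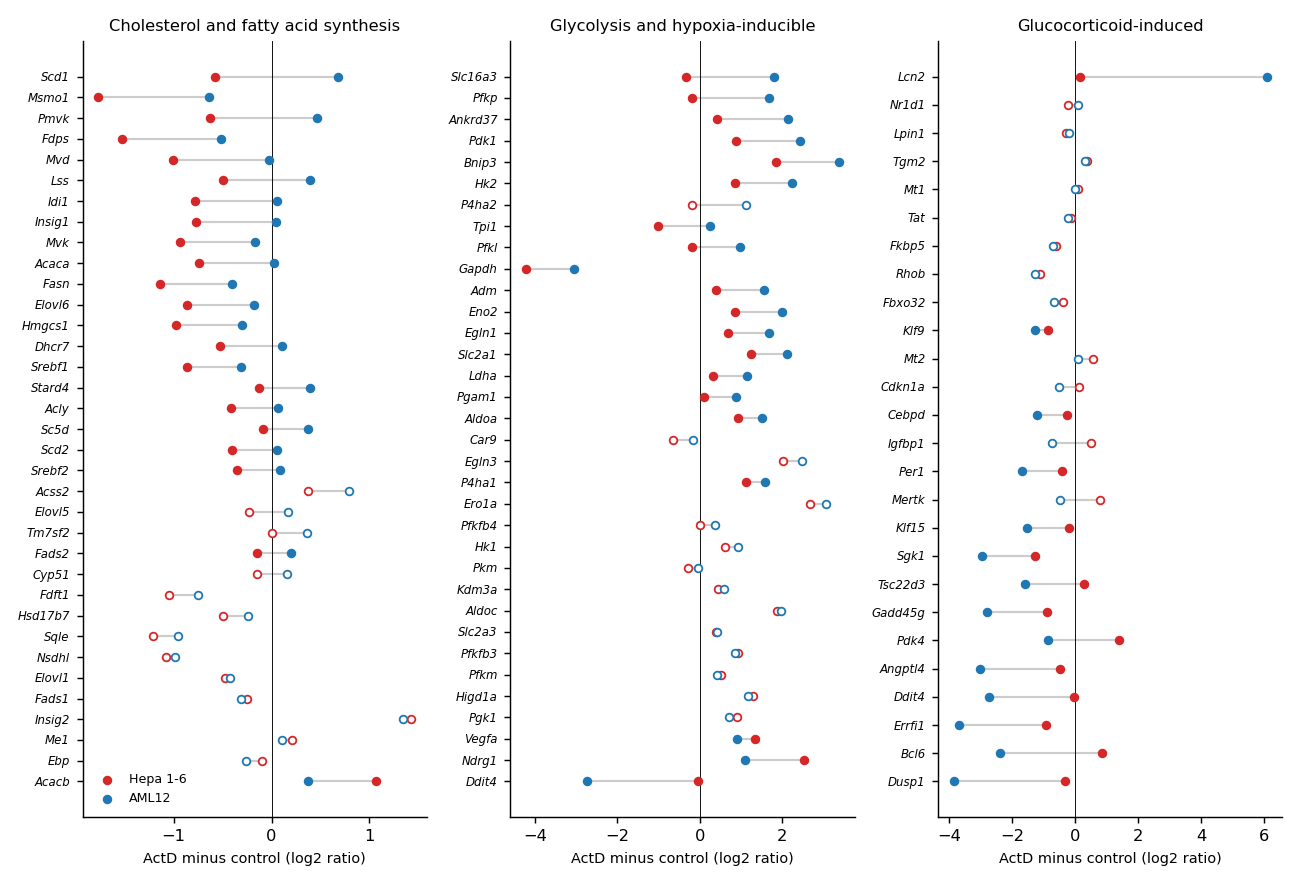
Change with actinomycin D (log2 ratio) of each tested member of 3 gene lists in Hepa 1-6 and AML12, 1 gene per row, with filled points where the difference between lines passed the threshold. In the cholesterol and fatty acid list 21 filled members have Hepa 1-6 left of AML12, in the glycolysis and hypoxia list 17, and in the glucocorticoid list 13 have Hepa 1-6 right of AML12, with Lcn2 as the exception.

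Hepatocyte genes did not follow one direction. Differences were found in 40.5% of the plasma protein genes, 50% of the transcription factors and 33.3% of the metabolic enzymes, against 30% of all genes. Of 37 plasma protein genes, 9 were more positive and 6 less positive in Hepa 1-6, and the 9 were 4 without any 1 of the first AML12 control, the second AML12 array with ActD, the second Hepa 1-6 control and the first Hepa 1-6 array with ActD. Serpinf2, the plasmin inhibitor, had 2.39 and 2.25 in Hepa 1-6 with ActD, against 2.39 and 2.25 in Hepa 1-6 controls, and 2.45 and 2.20 in AML12 with ActD, against 4.45 and 4.25 in AML12 controls. F2, which encodes prothrombin, rose by 0.50 in Hepa 1-6 and 1.73 in AML12. Of 36 hepatocyte transcription factors, 13 were more positive and 5 less positive. Foxa3, a liver forkhead factor, changed by 0.37 in Hepa 1-6 and -1.28 in AML12, and Nr1h4, the bile acid receptor FXR, rose by 0.46 and fell by 0.75. Hnf4a passed in neither line, at 0.24 in Hepa 1-6 and 0.02 in AML12. Among 24 metabolic enzymes, 2 were more and 6 less positive, and Hal, the histidine lyase, changed by 0.14 and 1.22.

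Transporters and matrix genes were mixed as well. The share that differed was 47.8% of drug transporters, 36.4% of metal genes and 46.3% of matrix and epithelial genes, against 30% of all genes. Of 23 drug transporters, 3 were more and 8 less positive in Hepa 1-6, 6 and 5 under quantile normalization. Abcb11, the bile salt export pump, changed by 1.27 in Hepa 1-6 and -0.43 in AML12, and Abcc1, an efflux pump, by 0.42 and 1.39. Of 22 metal genes, 3 were more and 5 less positive, and Fth1, the ferritin heavy chain, was less positive at -0.10 in Hepa 1-6 and 0.85 in AML12. Of 41 matrix and epithelial genes, 10 were more and 9 less positive, the 9 being 2 without the first Hepa 1-6 control. Thbs1, thrombospondin 1, changed by -1.29 in Hepa 1-6 and 0.14 in AML12, where it stood at -4.10 on both control arrays.

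Ribosomal proteins and respiratory chain subunits had the lowest shares of differing genes of the 30 lists. Of 56 ribosomal protein genes 5 were more and 5 less positive in Hepa 1-6, together 17.9% of those tested against 30% of all genes, and 1 to 8 and 0 to 6 under the alternatives. Of 68 oxidative phosphorylation subunits 3 were more and 11 less positive (20.6%), and 0 to 3 and 5 to 14 under the alternatives. Of 54 mRNA decay factors 8 were more and 7 less positive, a share of 27.8% near that of all genes, and 4 to 10 and 1 to 11 under the alternatives. Rps2, a subunit of the small ribosome, rose by 0.32 in Hepa 1-6 and fell by 0.22 in AML12, and Cox7c, of the respiratory chain, fell by 0.81 and rose by 0.32. The changes of Rps2 were small, and its difference did not pass with the feature of highest mean ratio. Of 42 ribosome biogenesis genes, 15 were more positive and 0 less positive (35.7%, against 30% of all genes), but 8 were more positive after median centring and 5 after quantile normalization, with 1 less positive. Of 43 genes of RNA polymerase II and its release from pausing, 14 were more and 2 less positive (37.2%), and 8 and 2 after quantile normalization. Tbp, the TATA-binding protein, changed by -0.09 in Hepa 1-6 and -1.55 in AML12 over 11 features, whereas Polr2a, the large subunit of the polymerase, changed by -0.92 and 0.10. Of 24 histone genes, 5 were more and 3 less positive (33.3%), and 17 fell in Hepa 1-6 and 21 in AML12, against 23% and 25.5% of all genes.

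**Figure D5:**
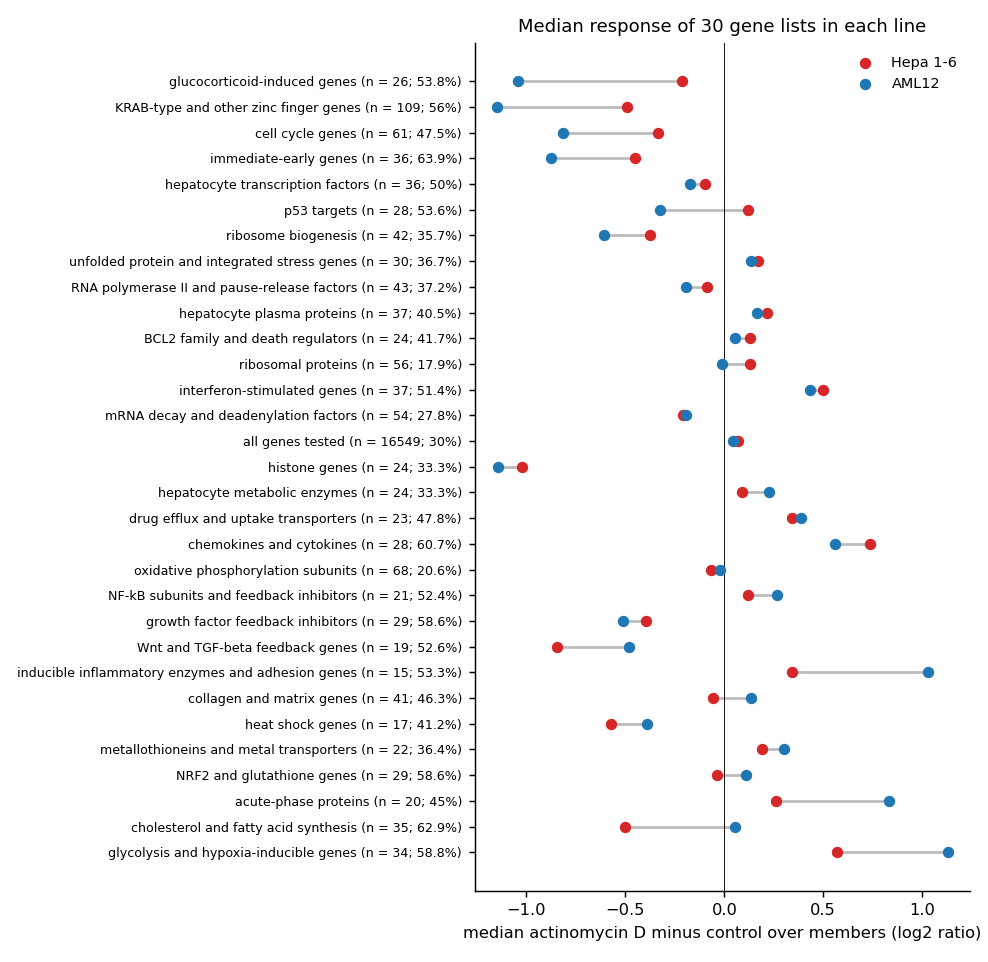
Median change with actinomycin D (log2 ratio) over the tested members of 30 gene lists and over all genes, in Hepa 1-6 and AML12, with the number tested and the percent whose difference passed the threshold beside each name. The glucocorticoid, zinc finger and cell cycle lists lie at the top with AML12 lower (-1.04, -1.15 and -0.81), and the glycolysis, cholesterol and acute-phase lists at the bottom with AML12 higher (1.13, 0.05 and 0.83).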

How the data were processed

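Total RNA from 12 samples, 2 in each of 6 groups, was hybridised to two-colour Agilent arrays. The authors deposited log ratios of sample over reference, taken here as log10, and the submitters' processing notes name Agilent Feature Extraction. Neither a version nor the base of the logarithm is stated there. An exact 0 was read as no ratio.

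Ratios were multiplied by 3.322 to give log2. A single gene symbol was held by 33653 of 45018 features, while 56 held more and 11309 held none. Symbols were updated through Entrez numbers in the GRCm38.p6 gene table, which held 99.6% of the single-symbol features. Averaging 28519 of them, all measured on each of the 12 arrays, gave 16549 genes. Group means were fitted to all 12 arrays by lmFit and eBayes (limma 3.58.1, R 4.3.3, residual df 6), and p-values were adjusted by Benjamini-Hochberg over all genes at 0.05. The series text calls the 2 samples of a group biological replicates. The number of arrays limits the precision. Tested on simulated data for the difference between lines over 16549 genes, the fit recovered 60 of 100 changes of log2 1 and 87 of 100 of log2 2, with 7 false calls. The simulation gave all groups 1 baseline and independent noise, and changed far fewer genes than differed in the data. These figures are therefore not the error rates of the calls made here.

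Genes named are the 8 with the largest differences in each opposite or line-specific class (4 in each direction for the same-direction class), with all group means above -5 and non-overlapping arrays, up to 4 of each of the 30 lists, and Myc. Predicted and clone-named genes were left out of the picks by class. Others were chosen after their values were seen, among them Mdm2, Gadd45b, Idi1, Tsc22d3, Pdk4 and Hp. The genes, lists and classes were chosen with earlier results of these data known, and lists overlap. Alternatives were other scalings, feature rules, filters, priors, a replicate block, the 8 arrays alone, a 2-fold minimum, and each array left out in turn. Promoters came from the RefSeq table on GRCm38.p6, and identity was counted after global alignment. Python 3.11.15, pandas 2.3.3 and matplotlib 3.10.9 were used for sequences and figures.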

Additional observations from a re-analysis of the deposited data

Results flagged for a closer look

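The effect of actinomycin D differed between Hepa 1-6 and AML12 for 4972 genes by the test of the difference itself, and 348 of these rose in Hepa 1-6 and fell in AML12 while 284 fell in Hepa 1-6 and rose in AML12. The genes below had opposite responses and a difference past the threshold, and were picked by the naming rule above, without predicted genes and with all group means above -5. Those with the largest positive differences were Hsd3b4 at 3.77, Ivl at 3.56, Hsd3b5 at 3.53, Prss8 at 3.52, Slc16a9 at 3.5, Btbd17 at 3.5, Atp6v1c2 at 3.48 and Slc2a5 at 3.35 on the log2 scale. Those with the largest negative differences among genes with all group means above -5 were Saa3 at -9.50, Cybb at -4.64, Lrg1 at -3.97, Prss12 at -3.15, Prdm8 at -2.97, Rasl12 at -2.93, Ch25h at -2.92 and Nepn at -2.58.

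Features with no gene symbol were not used in any comparison. Of 7099 such features with a ratio on all 12 arrays, 2039 (28.7%) had a difference past the threshold, 767 of them more positive and 1272 less positive in Hepa 1-6, and the largest were 4.29 and -5.51.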

How the results depend on the processing

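With every feature tested by itself, 10545 features differed between the lines, 1257 had opposite responses (655 higher in Hepa 1-6 and lower in AML12, 602 the reverse) and 5616 line-specific ones (1328 rises and 1042 falls in Hepa 1-6, 1704 rises and 1542 falls in AML12), while 17906 changed in Hepa 1-6 and 19488 in AML12; more units were tested there. With a minimum fold of 2 these counts were 1351, 309 (185 and 124), 631 (221 and 57, 151 and 202), 1655 and 2013. Leaving out 1 array gave 3617 to 4955 differing genes, 426 to 654 opposite (250 to 372 and 176 to 282) and 2052 to 2641 line-specific (464 to 730 and 294 to 471 in Hepa 1-6, 507 to 759 and 538 to 742 in AML12), with 6508 to 8458 changed genes in Hepa 1-6 and 7154 to 8884 in AML12. An arm left with 1 array is assumed to vary like the other groups. Without the first Hepa 1-6 control, 3481 of the 4972 genes (70%) were called again. Median centring shared 4422 of the calls and quantile normalization 3913. The median difference was 0.0326, a shift under 0.1.

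Of 152 named genes past the threshold, 123 passed in every alternative run for them and 29 were lost in at least 1. The feature with the highest mean ratio reversed Nr4a2 (0.15), Plk4 (0.17) and Pabpc1 (0.44), whose features disagree. With the replicate number as a block, 4744 genes differed. Deviations of same-numbered arrays correlated at 0.0326 in Hepa 1-6 and 0.159 in AML12, and the labels do not say that the numbers pair samples. Ratios near the low end limit the size of changes.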
